A study of Mus musculus with 2 samples.

Results

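Cycling fibroblasts were the collagen-producing cells of mouse pancreatic tumours that carried transcripts of cell division. They were chosen by 6 genes: a barcode inside the fibroblast gate was a member when it held at least 5 unique molecular identifiers (UMIs, counts of captured RNA molecules) summed over Mki67, Top2a, Cdk1, Ccnb1, Cdc20 and Birc5. The gate kept barcodes with at least 5000 UMIs, at least 500 genes and at most 10% mitochondrial UMIs. It also asked for at least 3000 CPM (UMI counts scaled to the usual fixed total per cell or summed group) over the collagen genes Col1a1, Col1a2 and Col3a1, and under 300 CPM over Tyrobp, Pecam1, Rgs5 and Epcam, which mark myeloid, endothelial, mural and epithelial cells. Members numbered 377 of 3832 gated fibroblasts, among 21172 barcodes in all.

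The tumours were allografts of pancreatic ductal adenocarcinoma in mice of the genotype p16-CreERT2/R26-LSL-tdTomato. Cells that use the p16 locus make the inducible Cre, which, once activated, removes a stop in front of the red fluorescent protein tdTomato, so the reporter marks them and their progeny. Stromal cells were sorted by flow cytometry into a fraction with the reporter (Tom positive) and one without it (Tom negative), and each fraction gave 1 single-cell library made with the 10x Genomics 3′ kit. Both sorts shared the genotype and the tumour model, and the number, age and sex of the animals, the grafted line and the induction of Cre are not given in the sources used here.

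With 1 library per group no test between groups was possible, and the 95% intervals given here hold counting error only. The 6 genes were measured in the same cells that they chose, so the contrast of cycling fibroblasts with gated fibroblasts that had 0 UMIs of these genes (0-UMI fibroblasts, 779 Tom positive and 1012 Tom negative) is a description. A gene was called higher or lower in cycling fibroblasts when it was at least 1.5-fold apart in both libraries on the log2(CPM + 1) scale of summed counts. It was measured when it reached 20 CPM in at least 1 of the summed groups of each library. Where values come in pairs, the Tom positive library stands first and the Tom negative library second.

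A dividing cell licenses its replication origins in G1, copies its DNA in S phase and segregates the copies in M phase. E2F factors drive the genes of the first steps, and the DREAM and MuvB complexes, with B-MYB and FOXM1, time those of G2 and M through a promoter element called CHR, often beside CCAAT boxes. Cyclin-dependent kinase (CDK) inhibitors of the INK4 and CIP/KIP families hold cells out of the cycle. The INK4 protein p16 is made from Cdkn2a, the locus that carried Cre here. Fibroblasts of pancreatic tumours are known as contractile, matrix-making and as inflammatory, cytokine-making cells.

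The promoters of genes that chose or followed the members are shown. The rule genes among them were high together in members by the choice itself, which is no evidence of shared regulation. Each window is the 250 bases before the transcription start in RefSeq, build GRCm38.p6 (mm10), written 5′ to 3′ on the gene's strand. Capitals mark the letters TTTGAA (CHR), CCAAT, and TTTCGCGC or TTTGGCGC (E2F), on either strand, and a longer run in capitals is made of overlapping matches. The windows are chr10:69352913-69353162 (minus strand) for Cdk1, the kinase that starts mitosis, and chr11:99024190-99024439 (minus strand) for Top2a, which untangles DNA. They are chr7:135716380-135716629 (minus strand) for Mki67, the chromosome surface protein Ki-67, and chr8:75109259-75109508 (plus strand) for Mcm5, a subunit of the replicative helicase that was not part of the rule.
Cdk1: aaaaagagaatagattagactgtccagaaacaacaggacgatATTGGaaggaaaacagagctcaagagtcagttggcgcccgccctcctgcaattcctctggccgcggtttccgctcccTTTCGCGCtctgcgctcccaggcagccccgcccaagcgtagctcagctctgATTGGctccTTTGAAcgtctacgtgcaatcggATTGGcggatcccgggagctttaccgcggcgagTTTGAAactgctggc
Top2a: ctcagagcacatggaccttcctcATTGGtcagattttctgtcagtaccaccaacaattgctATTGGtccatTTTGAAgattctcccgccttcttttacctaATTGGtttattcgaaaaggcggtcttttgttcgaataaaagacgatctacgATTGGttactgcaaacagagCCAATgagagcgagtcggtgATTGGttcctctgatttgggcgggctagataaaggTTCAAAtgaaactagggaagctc
Mki67: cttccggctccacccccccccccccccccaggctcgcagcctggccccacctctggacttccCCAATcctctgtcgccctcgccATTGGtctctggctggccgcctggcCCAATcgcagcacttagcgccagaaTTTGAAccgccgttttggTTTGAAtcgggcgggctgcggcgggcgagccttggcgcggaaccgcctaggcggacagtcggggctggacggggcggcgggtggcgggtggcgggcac
Mcm5: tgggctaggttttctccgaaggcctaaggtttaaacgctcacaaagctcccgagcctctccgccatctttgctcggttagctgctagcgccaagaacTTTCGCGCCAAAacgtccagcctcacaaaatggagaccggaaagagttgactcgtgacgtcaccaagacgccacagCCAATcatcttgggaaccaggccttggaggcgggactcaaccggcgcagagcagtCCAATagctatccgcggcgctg
Cdk1, Top2a and Mki67 each held 2 CHR matches. Mcm5 held none of these and carried 2 overlapping E2F matches, which begin 153 and 149 bases before the start. Cdk1, alone of the rule genes, also held an E2F match, which begins 131 bases before the start. Among the 6 rule genes, Cdc20 also held a CHR match and Ccnb1 held CCAAT boxes alone, while Birc5 held none of these letters in its window. Of 59 genes of the mitosis lists and the rule that had a window, 33.9% held a CHR match and 71.2% a CCAAT box. Of 44 genes of the replication lists, these shares were 15.9% and 59.1%. Over all 27025 genes with a window they were 18.3% and 37.5%. E2F letters were in 3.39% of mitosis genes, 11.4% of replication genes and 0.759% of all genes. These are letter matches in 250 bases and were not compared with any binding data.

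Cycling fibroblasts made up 8.27% of gated fibroblasts in the Tom positive library (123 of 1488, exact binomial 95% interval 6.92 to 9.78) and 10.8% in the Tom negative library (254 of 2344, 9.61 to 12.2). The share was lower in the Tom positive library, at 0.763 of the other, and the intervals overlap. It was also lower there in each of 10 other settings, with ratios of shares from 0.596 to 0.855. The rule counts UMIs and so favours deep barcodes: members had medians of 64241 and 62382 UMIs, against 36789 and 34355.5 in 0-UMI fibroblasts. After every gated cell was thinned to 5000 UMIs, 13.9% (12.2 to 15.8) and 17.1% (15.6 to 18.7) of them held at least 1 UMI of the 6 genes.

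Free RNA can lend UMIs to cells that do not make them. At 2000 UMIs per cell, 6.92% and 10.5% of gated fibroblasts in the Tom positive and Tom negative library held a UMI of the 6 genes. In neutrophils, which do not divide, it was 0 of 26 (exact upper bound 13.2%) and 2 of 101 cells (1.98%), with own medians of 4178 and 3215 UMIs. No neutrophil reached 5 UMIs of these genes at its own depth. Just inside the threshold, 6 Tom positive and 28 Tom negative members held exactly 5 UMIs, and 22 and 57 gated cells just outside held 4.

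**Figure D1:**
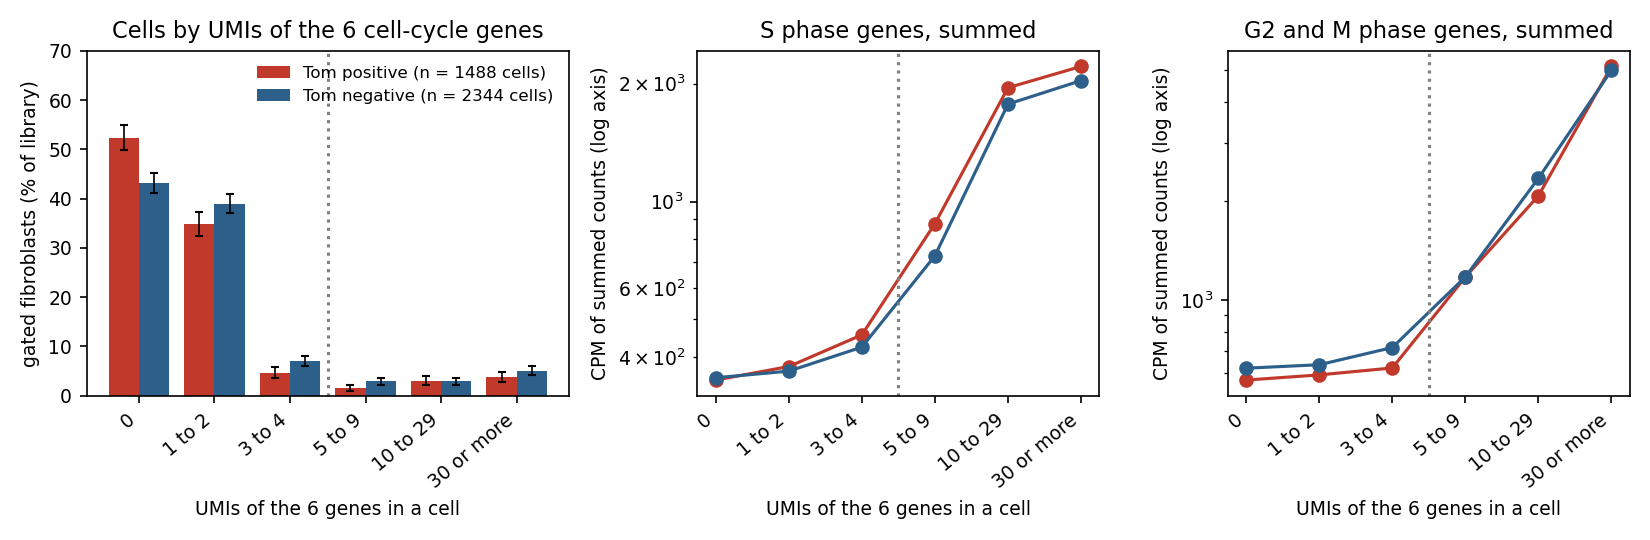
Gated fibroblasts by the UMIs of the 6 cell-cycle genes in a cell (left, percent of each library's gated cells, with exact binomial 95% intervals) and summed levels of the S phase and the G2 and M phase lists in the same bins (middle and right, CPM of summed counts on a log axis). The dotted line marks the threshold of 5 UMIs. From the 0-UMI bin to the bin of 30 or more, the G2 and M list went from 570.2 to 5137 CPM (Tom positive) and from 619.7 to 5001 CPM (Tom negative).

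Members carried the markers of the label, which were part of the choice. Birc5, the survivin subunit of the complex that guides chromosome segregation, had UMIs in 91.1% and 90.6% of members. Cdk1 was detected in 91.1% and 88.6% of them, Top2a in 87.0% and 76.4%, and Mki67 in 82.9% and 75.6%. Ccnb1, the mitotic cyclin, was detected in 62.6% and 67.3%, and Cdc20, which activates the anaphase-promoting complex, in 65.9% and 73.2%. Most members carried several of these genes: 103 of 123 and 201 of 254 held at least 4 of the 6, and 48 and 102 held all 6. Summed levels were 193 CPM (184 to 203) and 155 CPM (149 to 162) for Top2a, and 63.8 CPM (58.3 to 69.7) and 78.1 CPM (73.8 to 82.5) for Ccnb1. A median of 28 and 26.5 UMIs of the 6 genes per member lay far above the threshold.

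The cells were fibroblasts by markers outside the gate. All 11 further fibroblast markers were measured, and they summed to 7992 and 6401 CPM in members, against 12216 and 11767 CPM in 0-UMI fibroblasts. Of the 11, 5 were called lower in members (Pdgfra, Dcn, Lum, Dpt and Mmp2) and 1 higher (Pdgfrb). Over all genes 7.68% were lower and 12% higher. The calls of Pdgfra and Pdgfrb were lost against a deeper reference given below. Epcam, an epithelial marker and part of the gate, had 0 counts in Tom positive members, which allows up to 0.383 CPM, and 0.0617 CPM in Tom negative ones. All 8 macrophage markers were found, at sums of 67.6 and 186 CPM in members and 84.0 and 119 CPM in 0-UMI fibroblasts. The 5 neutrophil markers summed to 3.83 and 85.0 CPM in members and 30.7 and 31.7 CPM in 0-UMI fibroblasts. The 7 mural markers, which include Rgs5 of the gate, summed to 48.2 and 72.3 CPM in members and 47.1 and 75.1 CPM in 0-UMI fibroblasts. The 8 epithelial markers summed to 8.68 and 19.1 CPM, with 3 of the 8 at 0 counts in Tom positive members. Tom negative members thus held more RNA of myeloid genes than Tom positive members, and these sums are repeated beside the differences between sorts.

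Many barcodes were present in both libraries. Of the members, 80 Tom positive (65.0%) and 72 Tom negative (28.3%) barcodes also occurred in the other library. There they held 1.51 to 2.01% and 0.782 to 1.28% of the member's UMIs, and none of them passed the gate. No member was therefore such a shallow copy. Leaving shared barcodes out removes deeper members, whose medians were 65756 and 71282 UMIs against 56006 and 58104.5 for the rest. Scrublet called 1 Tom positive and 6 Tom negative members doublets, and these were kept. One Tom positive member, with 64448 UMIs, held Xist at 2281 CPM beside 4 counts of the Y-linked Ddx3y, 23 of the mesothelial gene Msln and 16 of the keratin gene Krt18. No other Tom positive member had an Xist UMI. Leaving out barcodes with at least 100 CPM of Xist kept 790 of the 794 higher and 500 of the 509 lower calls given next.

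Across 6628 genes measured, 794 (12%) were higher and 509 (7.68%) lower in cycling fibroblasts of both libraries. The median log2 difference over these genes was 0.08 in the Tom positive and 0.10 in the Tom negative library. When these medians were set to 0, 599 were higher and 643 lower, so the split of calls depends on the scaling. Many calls were not made with another reference. Against the deeper 0-UMI fibroblasts, drawn to approach the depth of the members (89 and 139 cells, medians of 55876 and 50217 UMIs, still under those of the members), 489 of the 794 and 257 of the 509 were called again. These counts applied the 20 CPM minimum anew. On the same 6628 genes, 489 and 271 were called again, and in all 515 genes were higher and 282 lower. The list counts below against the deeper cells use these 6628 genes. With every cell thinned to 5000 UMIs, 776 genes were higher and 531 lower, of which 598 and 402 were among the 794 and 509. What part depth has in the lost calls was not tested. Where a gene named here was lost against these deeper cells, this is said beside it. The cycling cells were chosen by cell-cycle genes, so the counts of cell-cycle lists that follow describe the choice and support nothing further.

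Measured genes that open and copy DNA were all higher. All 11 measured members of the licensing and helicase list, of 18 in it, were higher, with median log2 differences of 2.77 in the Tom positive and 2.53 in the Tom negative library. Mcm5 stood at 50.3 CPM (45.4 to 55.5) and 48.2 CPM (44.9 to 51.7) in cycling fibroblasts. In 0-UMI fibroblasts it stood at 2.05 and 1.98 CPM. The groups were apart by about the same ratio in both libraries, 24.5 (18.5 to 32.8) and 24.4 (19.0 to 31.7).

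All 17 measured of 25 replication fork genes and all 8 measured of 10 genes of deoxynucleotide supply were also higher. Pcna, the clamp that holds polymerases on DNA, was at 91.5 and 86.1 CPM in cycling and at 18.0 and 18.6 CPM in 0-UMI fibroblasts. Rrm2, a subunit of ribonucleotide reductase, was at 110.4 and 112 CPM against 5.95 and 5.06 CPM. Pclaf, which binds PCNA, was at 235 and 213 CPM against 1.49 and 2.09 CPM, and was among the 12 genes with the highest differences once the 6 rule genes were set aside. Tk1, the thymidine kinase of the salvage pathway, was at 76.2 and 63.7 CPM against 1.10 and 1.28 CPM. All 18 measured of 27 genes of replication-coupled repair and chromatin were higher. Each of these lists gave the same counts against the deeper 0-UMI cells.

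Apart from the rule genes, the spindle and kinetochore lists had the highest medians of the lists described here. All 20 measured of 25 genes of spindle motors and midzone were higher, with medians of 4.36 and 4.31 on the log2 scale, and all 18 measured of 24 genes of centromere, kinetochore and checkpoint, with medians of 4.57 and 4.16. Ube2c, the ubiquitin-conjugating enzyme of the anaphase-promoting complex, was at 196 CPM (186 to 206) and 204 CPM (197 to 211) in cycling fibroblasts. It was at 1.45 and 2.27 CPM in 0-UMI fibroblasts. Cenpa, the histone variant of centromeres, was at 121 and 157 CPM against 2.66 and 4.10 CPM, and Tpx2, a spindle assembly factor, at 82.8 and 82.2 CPM against 1.56 and 1.72 CPM. Plk1, a mitotic kinase, was at 34.7 and 43.7 CPM against 0.460 and 0.523 CPM. Of the 8 measured genes of the anaphase-promoting complex, securin and separase 5 were higher, and of the 11 of condensin and cohesin 9 were, including Smc2 at 105 and 99.3 CPM against 8.39 and 8.52 CPM. The remaining genes among the 12 highest were Ccna2, Cenpe, Cenpf, Pbk, Cdca3, Cdca8 and Hist1h2ap. All 12 stayed past 1.5-fold in both libraries in every alternative run.

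Among regulators of the cycle, medians were 1.63 and 1.59 for cyclins, CDKs and CDC25 phosphatases and 0.95 and 0.89 for E2F, DREAM and FOXM1 genes. Of 12 measured cyclins, CDKs and CDC25 phosphatases, 10 were higher. Ccna2, the cyclin of S and G2 phase, was at 77.7 and 90.2 CPM against 0.283 and 1.51 CPM, and Ccne2, a cyclin of S phase entry, at 24.5 and 26.9 CPM against 1.38 and 1.48 CPM. The D cyclins, which pass on growth signals, differed among themselves. Ccnd1 was at 39.3 and 36.5 CPM against 19.4 and 14.7 CPM, whereas Ccnd2 was at 87.3 and 92.7 CPM against 89.3 and 85.8 CPM, and Ccnd3 at 102 and 116 CPM against 121 and 124 CPM. Cdk4, their partner kinase, was 1.58-fold and 1.66-fold higher and was lost against the deeper 0-UMI cells. Among 8 measured E2F, DREAM and FOXM1 genes, 5 were higher: E2f1, E2f3, Tfdp1, Lin54 and Foxm1, of which E2f3 was lost against the deeper cells. Foxm1 was at 29.4 and 26.3 CPM against 1.28 and 0.988 CPM.

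**Figure D2:**
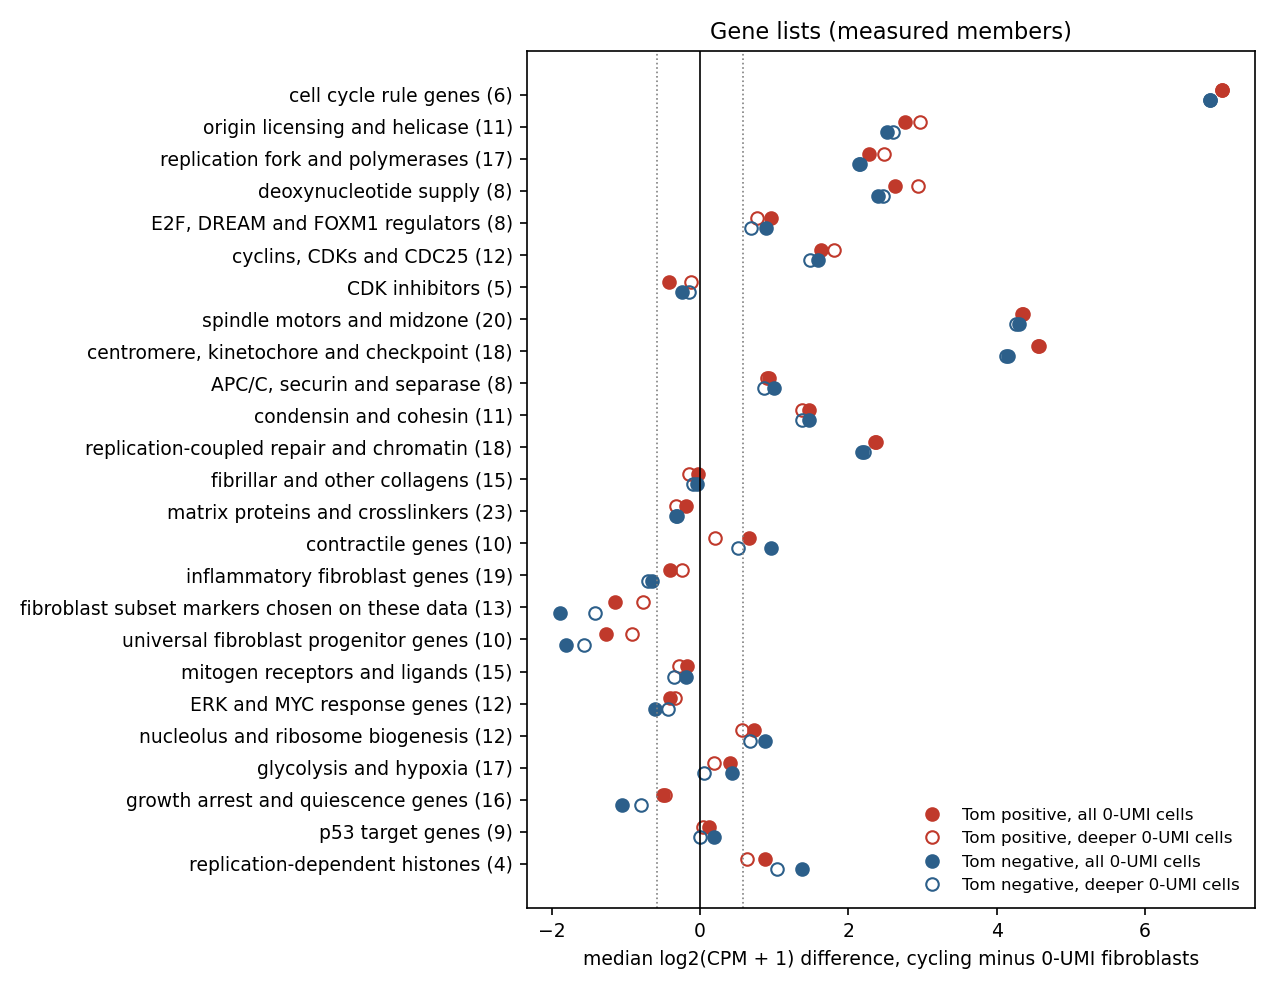
Median log2(CPM + 1) difference, cycling minus 0-UMI fibroblasts, over the measured members of each gene list (number in brackets), against all 0-UMI fibroblasts (filled) and against the deeper 0-UMI fibroblasts (open), for the Tom positive (red) and the Tom negative (blue) library. Dotted lines mark 1.5-fold. Lists of replication and mitosis lie right of 1.5-fold with either reference, while the contractile medians of 0.66 and 0.96 become 0.20 and 0.51 with the deeper one.

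Members were placed by their levels of S phase and of G2 and M phase genes. No score was made for G1. The members were chosen by 6 cell-cycle genes, so the shares below describe that choice. Each cell was scored by the summed CPM of 42 S phase and 48 G2 and M phase genes, and a score was high when it passed the 99th percentile of the 0-UMI fibroblasts of its library, 1053 and 867 CPM for S phase and 1217 and 1266 CPM for G2 and M phase. These are ranges of a score and not cell types: 28 and 81 members lay within 1.5-fold of the S phase limit, and 27 and 59 within 1.5-fold of the other. Both scores were high in 72 of 123 (58.5%) and 136 of 254 members (53.5%). The G2 and M score alone was high in 33 (26.8%) and 67 (26.4%), and the S score alone in 8 (6.50%) and 16 (6.30%). The remaining 10 and 35 passed neither limit. Outside the members, 16 of 1365 and 33 of 2090 gated cells passed the S phase limit. These cells include 0-UMI fibroblasts, which set that limit.

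Plk1 and Hist1h2ap, which are on neither scoring list, differed between the ranges. Plk1 was at 49.9 and 38.7 CPM in members high for G2 and M alone, and at 39.2 and 58.9 CPM in those high for both. In members high for S alone it had 0 counts in 8 Tom positive cells and 2.74 CPM in 16 Tom negative cells. Hist1h2ap was at 180.5 and 688 CPM in members high for both scores, against 6.24 and 8.45 CPM in those high for G2 and M alone and 2.90 and 10.0 CPM in those high for S alone. Plk1 was thus low with S alone and present in both ranges with a high G2 and M score, and Hist1h2ap was high in the overlap and low in either range with 1 high score. Cenpa and Mcm5 are on the scoring lists and only describe the ranges. Cenpa was at 319.9 and 333 CPM with G2 and M alone and at 4.35 and 8.21 CPM with S alone, and Mcm5 at 12.5 and 9.0 CPM and at 50.7 and 53.8 CPM. The fibroblast genes Acta2 and Tnc were present in every range. Acta2 was lowest in Tom positive members high for both scores, at 588 CPM, and in Tom negative members high for S alone, at 882 CPM. Cdkn1c was at 66.5 CPM in the 35 Tom negative members that passed neither limit and between 8.21 and 26.2 CPM in the other 3 ranges of that library. The Tom positive library did not share this order, with 17.6 CPM in the 10 members that passed neither limit and 32.3 CPM in those high for G2 and M alone.

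**Figure D3:**
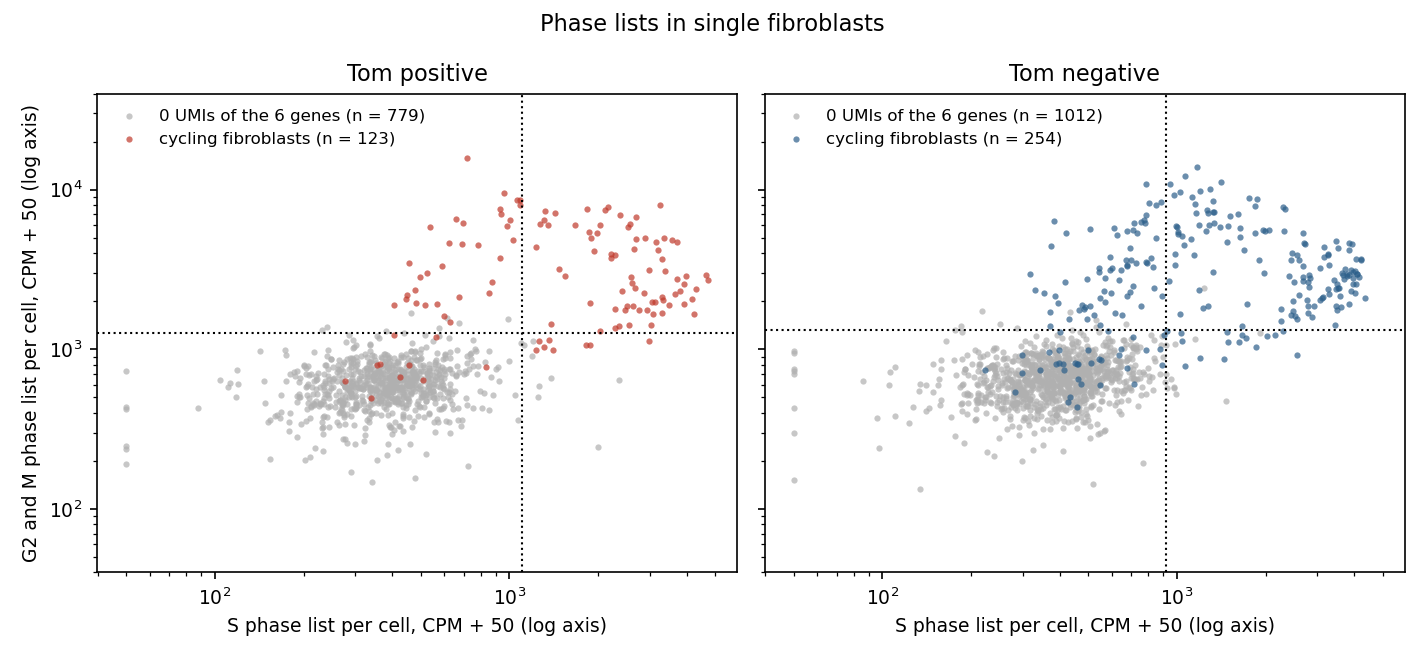
S phase list against G2 and M phase list in single fibroblasts, in CPM + 50 on log axes, for the Tom positive (left) and Tom negative (right) library. Coloured points are the 123 and 254 cycling fibroblasts, grey points the 779 and 1012 0-UMI fibroblasts, and dotted lines their 99th percentiles. Of the members, 72 and 136 lie above both lines, and 33 and 67 above the G2 and M line alone.

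Histone genes were listed by the Hist prefix of their names, which gave 67 features. Which of them are switched on with replication was not checked. Of the 67, 4 were measured, and 2 of the 4, Hist1h2ap and Hist1h4i, were higher. Hist1h1c had log2 differences of -0.26 and 0.70 and Hist1h2bc -0.68 and -0.09. Most mRNAs of histone genes switched on with replication lack a poly(A) tail, which this kit primes from. The levels of such genes are therefore a lower estimate. The 67 features summed to 385 and 698 CPM in cycling fibroblasts, against 164 and 149 CPM in 0-UMI fibroblasts. Hist1h2ap, an H2A gene, gave 109.9 CPM (103 to 117) and 407 CPM (398 to 417), against 0.531 and 2.97 CPM, and so made up much of these sums. It was detected in 46.3% and 55.5% of members. Tom negative members thus held more of it than Tom positive ones in both measures. Near-identical copies of this gene make its counting uncertain. Hist1h1b, a linker histone gene, went the other way between sorts, at 27.4 and 16.3 CPM in cycling and 0.319 and 0.262 CPM in 0-UMI fibroblasts.

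Among the CDK inhibitors, Cdkn1c set the groups apart most. Cdkn1c, which encodes the CIP/KIP inhibitor p57, lies at chr7:143458339-143461050 on the minus strand (mm10, GENCODE M21). Its level was 19.9 CPM (16.9 to 23.3) and 23.8 CPM (21.5 to 26.3) in cycling fibroblasts. In 0-UMI fibroblasts it was 189 CPM (184 to 194) and 219 CPM (214 to 224), which is 9.49-fold (8.10 to 11.2) and 9.20-fold (8.31 to 10.2) higher. Over bins of 0, 1 to 2, 3 to 4, 5 to 9, 10 to 29 and 30 or more UMIs of the 6 genes, the Tom positive library gave 189, 179, 89.8, 21.8, 17.4 and 20.9 CPM. The Tom negative library gave 219, 175, 125, 41.3, 21.3 and 17.7 CPM. Cells with 3 or 4 UMIs, outside the members, already stood between the groups. In cells thinned to 5000 UMIs, 8.94% and 7.48% of members held a Cdkn1c UMI, against 40.3% and 44.6% of 0-UMI fibroblasts. Against the deeper 0-UMI cells the log2 differences were -2.12 and -2.85, in place of -3.18 and -3.15.

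The other inhibitors did not share this pattern. Cdkn2c and Cdkn2d, INK4 genes for p18 and p19, were higher, at 46.7 and 37.9 CPM against 14.7 and 17.1 CPM, and at 50.3 and 51.7 CPM against 15.5 and 16.5 CPM. Cdkn1a, for the p53-induced inhibitor p21, was at 41.1 and 54.2 CPM against 55.3 and 67.6 CPM. A single cell held 28.0% of its counts among Tom positive members and 23.5% among Tom negative members. Cdkn1b, for p27, was at 23.9 and 28.2 CPM against 35.0 and 33.7 CPM. Neither of these passed 1.5-fold in either library.

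Cdkn2a, at chr4:89274471-89294653 on the minus strand, gives p16 and, through another first exon, p19Arf. It was found in cycling fibroblasts of both sorts. 3′ counts cannot tell these products apart, and the p16 part of the level was not measured. Cdkn2a was at 18.5 CPM (15.6 to 21.8) in Tom positive cycling and 15.4 CPM (14.0 to 17.0) in Tom positive 0-UMI fibroblasts. In the Tom negative library it was at 21.0 CPM (18.9 to 23.4) and 13.5 CPM (12.3 to 14.8). The log2 difference was 0.25 and 0.60, and the second was 0.54 against the deeper 0-UMI cells, under 1.5-fold. Between sorts, the levels in cycling fibroblasts had overlapping intervals. After thinning to 5000 UMIs, 6.50% (2.85 to 12.4) and 10.2% (6.80 to 14.6) of members held a Cdkn2a UMI, so no difference between the sorts was detectable at this depth.

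The reporter was at a like level in cycling and 0-UMI fibroblasts of the Tom positive library. tdTomato stood at 426 CPM (412 to 441) in cycling and 399 CPM (391 to 406) in 0-UMI fibroblasts, a ratio of 1.07 (1.03 to 1.11). The medians per cell were 38.3 and 39.0 CPM, and 5 cells held 41.7% of the members' tdTomato counts. In the Tom negative library it was at 18.1 CPM (16.1 to 20.3) in cycling and 16 CPM (14.7 to 17.4) in 0-UMI fibroblasts. By reporter level, 25 of 405 Tom positive gated cells with 0 tdTomato UMIs were cycling (6.17%, 4.03 to 8.98), 76 of 815 with a UMI but under 500 CPM (9.33%, 7.42 to 11.5), and 22 of 268 at 500 CPM or more (8.21%, 5.22 to 12.2). These intervals overlap, and the median depths were 36100, 43242 and 41291.5 UMIs. In the Tom negative library 109 of 1471 gated cells with 0 tdTomato UMIs were cycling (7.41%, 6.12 to 8.87), and 145 of 873 with a UMI (16.6%, 14.2 to 19.2). The latter were deeper, with medians of 44407 against 36110 UMIs, and the part of depth in this was not tested. Against the deeper 0-UMI cells the log2 difference of tdTomato was 0.48 in place of 0.10.

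**Figure D4:**
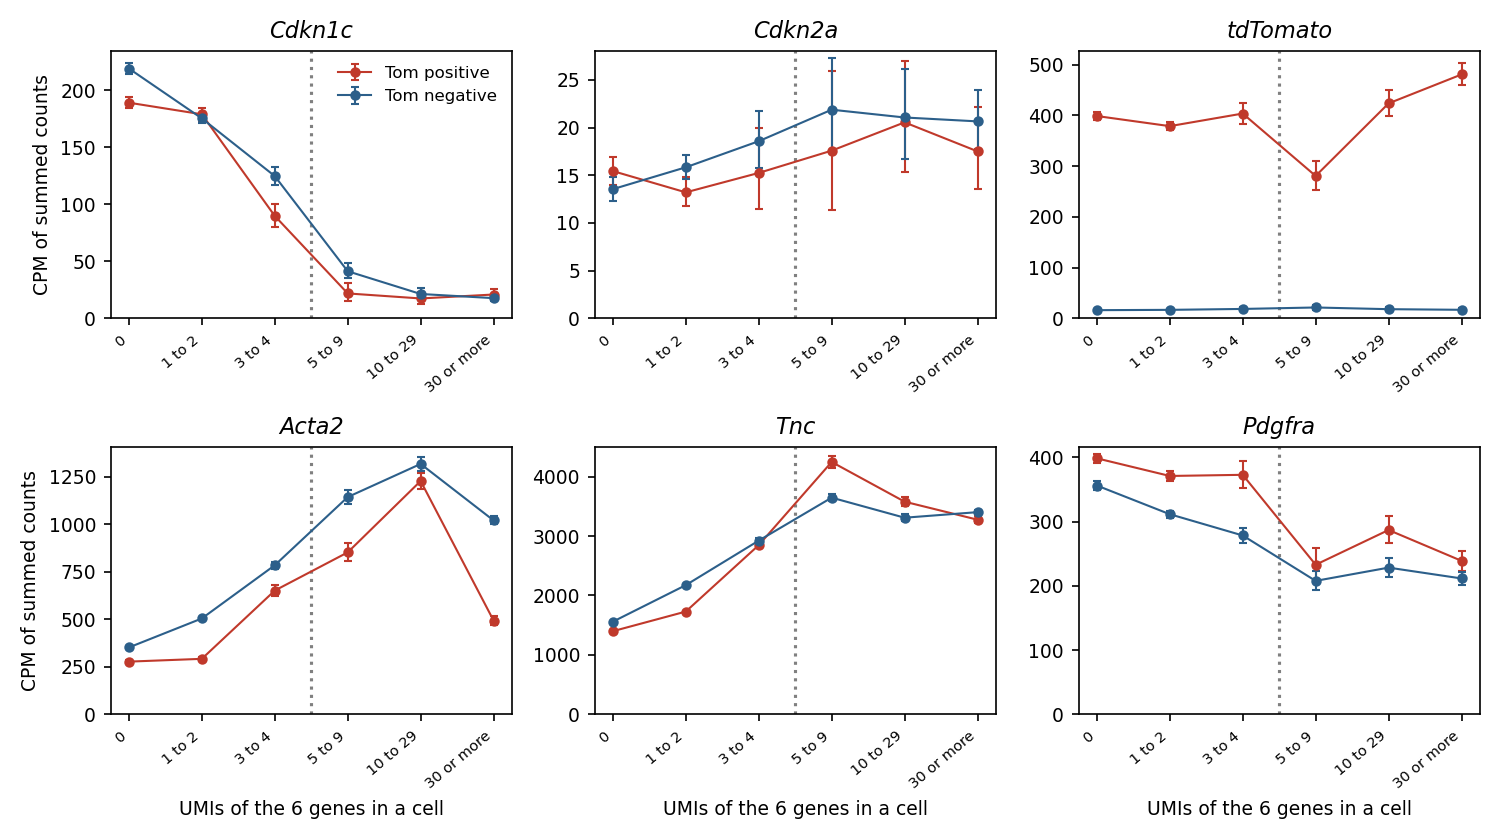
Levels of Cdkn1c, Cdkn2a, tdTomato, Acta2, Tnc and Pdgfra (CPM of summed counts, with exact Poisson 95% intervals) over bins of the UMIs of the 6 cell-cycle genes, for the Tom positive (red) and the Tom negative (blue) library. The dotted line marks the threshold of 5 UMIs. Cdkn1c is lower from 189 and 219 CPM at 0 UMIs to 20.9 and 17.7 CPM at 30 or more, and Acta2 peaks at 1228 and 1318 CPM in the bin of 10 to 29.

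Genes of contractile fibroblasts were higher in cycling fibroblasts, and less so against the deeper 0-UMI cells. Of 10 measured contractile genes 6 were higher, beside 12% over all genes: Acta2, Tagln, Myl9, Tpm2, Actg2 and Flna. Acta2, the smooth muscle actin of activated fibroblasts, was at 796 CPM (776 to 816) and 1119.6 CPM (1103 to 1136) in cycling, against 277 and 352 CPM in 0-UMI fibroblasts. The 56 Tom positive members with 30 or more UMIs of the 6 genes had 494 CPM of Acta2. This was under the 651 CPM of Tom positive cells with 3 or 4 UMIs, outside the members. The Tom negative library gave 1021 and 785 CPM in these bins. In cells thinned to 5000 UMIs, 54.5% and 64.6% of members and 23.6% and 26.4% of 0-UMI fibroblasts held an Acta2 UMI. Against the deeper 0-UMI cells Acta2 alone of the 6 remained called, with log2 differences of 0.68 and 0.63 in place of 1.52 and 1.67. There 515 of all 6628 genes were higher, so 1 of 10 was near the share over all genes. Tagln, which binds actin, had 0.91 and 1.34 against all 0-UMI cells and -0.30 and 0.39 against the deeper ones.

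Of 23 matrix genes measured, 3 were higher and 5 lower in both libraries and 15 were not called. The share called higher was near the 12% over all genes, and the share called lower was above the 7.68% over all genes. Against the deeper 0-UMI cells 1 of the 23 was higher and 4 were lower, beside 515 and 282 of all 6628 genes. Timp1, an inhibitor of metalloproteases, was at 4351 and 4212 CPM in cycling against 1064 and 968 CPM in 0-UMI fibroblasts, with log2 differences of 2.03 and 2.12. It remained called against the deeper cells, at 1.30 and 1.22. Tnc, the glycoprotein tenascin C, was at 3550.4 and 3435 CPM against 1399 and 1559 CPM. Its log2 differences of 1.34 and 1.14 were 0.41 and 0.30 against the deeper cells, so the call was lost, as it was for Loxl2, a collagen crosslinker. Lower were Fn1, Dcn, Lum, Eln and Mmp2, of which Fn1 was lost against the deeper cells. Dcn, a proteoglycan that binds collagen fibrils, was at 2042 CPM (2011 to 2074) and 1454 CPM (1436 to 1473) against 4324 and 4139 CPM. Eln, elastin, was at 181 and 89.5 CPM against 447 and 396 CPM. Of 15 collagen genes outside the gate, Col11a1 and Col14a1 were lower with either reference. Col5a3 and Col15a1 were higher and were lost against the deeper cells, and the list's medians were -0.03 and -0.05. For these collagens, too, the share called higher was near the 12% over all genes.

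Genes of the fibroblasts known as universal progenitors, a resting reservoir in many tissues, were lower. This held for 9 of 10 measured genes, with medians of -1.27 and -1.81, beside 7.68% over all genes. It held for 7 of the 10 against the deeper 0-UMI cells, where 282 of all 6628 genes were lower. Pi16 was at 194 and 147 CPM in cycling against 744 and 1088 CPM in 0-UMI fibroblasts. Cd34, a surface glycoprotein, was at 52.8 and 65.3 CPM against 190.3 and 290.5 CPM, and Dpp4, a surface peptidase, at 26.3 and 23.7 CPM against 61.9 and 94.1 CPM. Of 16 growth arrest and quiescence genes measured, 7 were lower and none higher, beside 7.68% lower over all genes. Against the deeper cells 6 of the 7 were lower too, beside 282 of all 6628 genes. Among them were Klf4, a transcription factor, at 212 and 171 CPM against 449 and 555 CPM, and Txnip, an inhibitor of thioredoxin, at 36.4 and 34.2 CPM against 119.6 and 105 CPM. Of the 12 genes with the lowest differences, Cdkn1c was the lowest. With it stood Cxcl13, Scara5, Clec3b, Slfn5, Ogn, Adh1, Ptn, Rcan2, Ctla2a, Lrrn4cl and Cd55, and all 12 stayed past 1.5-fold in both libraries in every alternative run. Clec3b, the secreted protein tetranectin, was at 48.4 and 46.4 CPM against 277 and 377 CPM.

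Of 19 measured inflammatory fibroblast genes 7 were lower, namely Il6, Cxcl13, Has1, C3, C4b, Ly6c1 and Clec3b, and 2 were higher. Over all genes 7.68% were lower and 12% higher, so the share called higher was near that over all genes. Cxcl5, a chemokine that attracts neutrophils, was at 194 and 105 CPM against 95.9 and 52.2 CPM and remained called against the deeper cells, whereas Has2, a hyaluronan synthase, was lost there. C3, complement component 3, was at 379.6 and 302 CPM against 867 and 1152 CPM, and was lost there together with Il6 and Has1. Of 16 markers of fibroblast subsets that had been picked on these same data, 13 were measured and 11 were lower, 7 of them also against the deeper cells, which is no independent evidence. Mitogen receptors and ligands gave 2 higher and 3 lower genes of 15, beside 12% and 7.68% over all genes. The share called higher was thus near that over all genes. All 5 genes were lost against the deeper cells. They included Pdgfra, at 253 and 215 CPM against 399 and 356 CPM, and Pdgfrb, at 184 and 199 CPM against 112 and 116 CPM, both receptors for platelet-derived growth factor.

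Of 12 measured nucleolus and ribosome biogenesis genes 10 were higher, with medians of 0.73 and 0.88, beside 12% over all genes. Against the deeper 0-UMI cells 5 of the 12 were higher, beside 515 of all 6628 genes. Ncl, the nucleolar protein nucleolin, was at 312 and 331 CPM against 172 and 161 CPM and remained called. Of 17 glycolysis and hypoxia genes 8 were higher, among them Gapdh and Ldha, beside 12% over all genes. All 8 were lost against the deeper cells, where the medians of the list were 0.19 and 0.05. Of 12 measured ERK and MYC response genes, Fosl2 and Spry2 were lower, beside 7.68% over all genes, and were lost there. Of 9 measured p53 targets Aen alone was higher, near the 12% over all genes, and was lost there.

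Between the sorts, cycling fibroblasts differed in few genes. Of 6663 genes that reached 20 CPM in cycling fibroblasts of either library, 88 (1.32%) were at least 1.5-fold higher and 70 (1.05%) at least 1.5-fold lower in the Tom positive library. Leaving out barcodes found in both libraries left 43 Tom positive and 182 Tom negative members. With these, 33 of the 88 and 47 of the 70 were called again. In 0-UMI fibroblasts 68 were higher and 103 lower of 6376. On both higher lists were 26 genes (of 88 and of 68), and on both lower lists 24 (of 70 and of 103). No gene of the spindle (22 measured), kinetochore (21), replication fork (20) or deoxynucleotide (8) lists was past 1.5-fold between the sorts. Lists of this size would hold few such genes at the shares of 1.32% and 1.05% over all genes. Members of both sorts were also chosen by the same 6 cell-cycle genes. Of 12 licensing genes 1 was higher in the Tom positive library, and of 14 genes of the cyclin and CDK list 1 was.

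tdTomato had the highest difference, at 4.49 on the log2 scale in cycling and 4.55 in 0-UMI fibroblasts. Thbs4, a matrix glycoprotein of the thrombospondin family, was at 427 CPM (413 to 442) and 84.0 CPM (79.6 to 88.6) in cycling fibroblasts, and at 533 and 171 CPM in 0-UMI fibroblasts. Its log2 differences were 2.33 and 1.63. Cilp, a cartilage matrix protein, had 1.57 and 0.91, and Saa3, an acute-phase protein, 2.15 and 1.40. A few cells carry several of these sums. For Saa3, 5 Tom positive members held 77.7% of the counts, and for Thbs4 60.9%. One of 123 Tom positive members held 77.2% of the Fmod counts, and the difference of 2.58 was 0.03 without barcodes found in both libraries. For Slpi, 1 member held 46.8% of the counts, and its difference of 1.60 was 0.20 without those barcodes. For Tnn and Iigp1, 5 members held 89.5% and 82.8% of the counts, and their differences were 1.97 and 1.31.

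Lower in Tom positive cycling fibroblasts were genes of myeloid cells and of antigen presentation. Cd74, the invariant chain of MHC class II, was at 10.6 CPM (8.44 to 13.1) and 104 CPM (98.7 to 109), and 5 of 254 Tom negative members held 66.2% of its counts. All 4 genes of the MHC class II list that reached 20 CPM, of 7 in it, were lower, beside 1.05% over all genes. H2-Aa, an MHC class II chain, was at 7.02 and 55.6 CPM, and Lyz2, the lysozyme of myeloid cells, at 22.8 and 81.7 CPM. In the Tom negative library 5 members held 52.2% of the H2-Aa counts, and 5 held 46.5% of the Lyz2 counts. Whether the same few cells carry these genes was not tested. The macrophage marker sums of 67.6 and 186 CPM and the neutrophil marker sums of 3.83 and 85.0 CPM moved with these genes, and their part in the difference was not tested. Mmp13, a collagenase, was at 36.1 and 88.6 CPM, with 31.5% of Tom negative counts in 1 member, and Ccl6, a chemokine, at 18.4 and 59.4 CPM. Nme2, a nucleoside diphosphate kinase, had differences of -1.69 in cycling and -1.51 in 0-UMI fibroblasts. It has near-identical copies, which makes its counts uncertain. Hist1h2ap had -1.88 and -1.37.

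**Figure D5:**
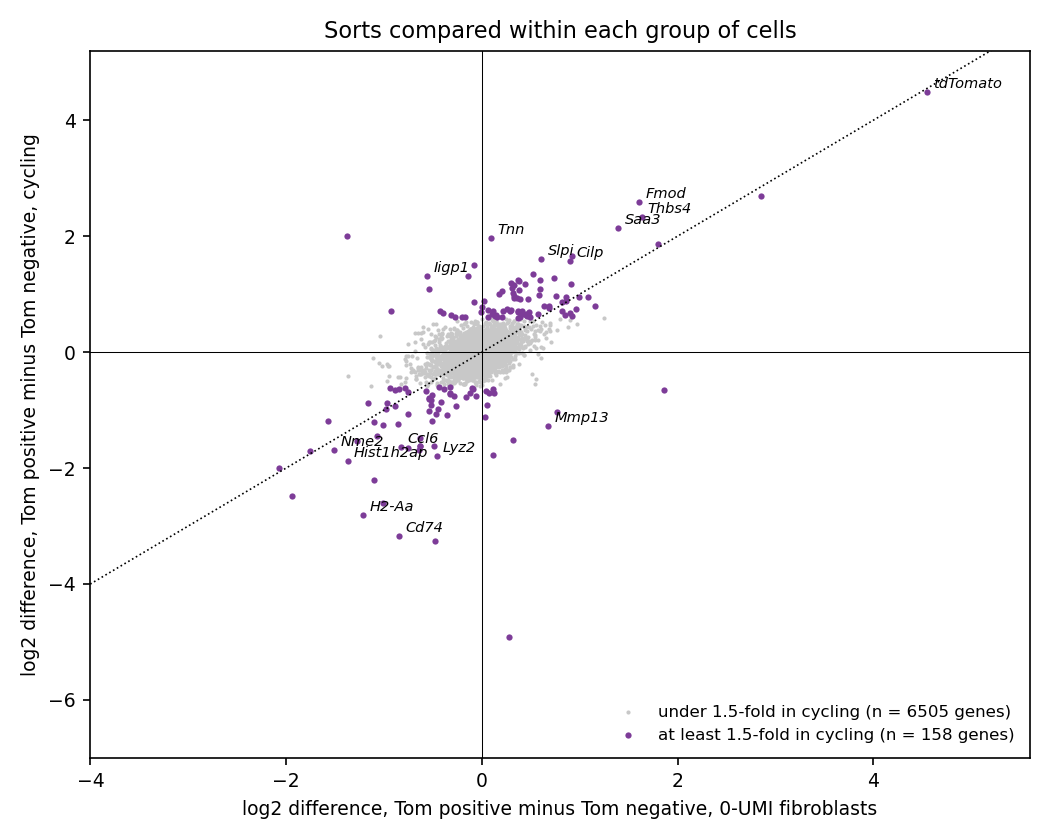
Log2 difference, Tom positive minus Tom negative, in cycling fibroblasts (vertical axis) against that in 0-UMI fibroblasts (horizontal axis), 1 point per gene measured in cycling fibroblasts. Purple points are the 158 genes at least 1.5-fold apart in cycling fibroblasts, grey points the other 6505, the dotted line marks equal differences, and the genes named in the text are labelled. tdTomato and Nme2 lie near the dotted line, whereas Cd74, Mmp13 and Iigp1 lie far from it.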

How the data were processed

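The authors' deposited files hold UMI counts per gene and barcode from 10x Genomics 3′ libraries. Per the file headers the counts were made with Cell Ranger 7.0.1, and per the submitters' processing notes the build was mm10. The annotation release and the calling of cells are not given in the sources used here. The 2 libraries held 128275546 (Tom positive) and 164646314 (Tom negative) UMIs over 7568 and 13604 barcodes and 31054 features. Members held 7835467 and 16217887 UMIs in all, so that 3 counts correspond to 0.383 and 0.185 CPM.

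Counts were summed per library over cycling and over 0-UMI fibroblasts, scaled to CPM and compared as log2(CPM + 1). Shares have exact Clopper-Pearson, levels exact Poisson and ratios exact conditional intervals, all at 95%. With 1 library per group no test was made. Doublets were kept, as the rule names none; Scrublet in scanpy 1.11.5, run per library, called 1.44% and 1.45% of barcodes with at least 1000 UMIs and 500 genes, and leaving these out was an alternative. Neutrophils were barcodes with at least 2000 UMIs, at most 10% mitochondrial UMIs, at least 20000 CPM of S100a8 and S100a9, and collagens under 3000 CPM. Python 3.11.15, numpy 2.4.6, scipy 1.17.1 and pandas 2.3.3 were used. The sums, folds and intervals were tested on simulated Poisson counts of the cycling over 0-UMI comparison: of 5967 genes, 200 were set 2-fold apart and 100% of these were past 1.5-fold, and no other gene was. The simulated sums had no spread between cells and covered genes at 20 CPM or more in 0-UMI fibroblasts. They check the computation and cannot show how reliable the calls in the data are.

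Named genes were the 12 highest and 12 lowest by the smaller of the differences in the 2 libraries, at 50 CPM or more in the higher group of both. Also named were the 8 highest and 8 lowest between sorts at 50 CPM or more, the rule genes, tdTomato, CDK inhibitors, and up to 6 members of each list by level. Not ranked were the 6 rule genes, genes of mitochondria, ribosomal proteins or haemoglobin, predicted genes, and any name that belongs to more than 1 feature. List members outside this rule that the text names, such as Cd34, Dpp4, Plk1, Ccne2, Ccnd1, Pdgfrb, Cxcl5 and those given as called or lost, were named after their values were seen. Some genes that the rule picked are not reported here. The members and all lists were chosen with earlier results of these data known. Names were matched to the files by symbol; 1 listed name was absent. Promoter windows came from RefSeq, and 59 of 65 and 44 of 53 listed genes had one. Every column of values in the files was used (0 left out).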

Additional observations from a re-analysis of the deposited data

Results flagged for a closer look

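In 4 named genes the difference between cycling and 0-UMI fibroblasts was at least 1.5-fold in both libraries and opposite in direction; the difference between the libraries was not tested. Cd74 had log2 differences of -1.38 in the Tom positive and 0.94 in the Tom negative library, and H2-Aa of the same pathway, which stayed under 20 CPM in the Tom positive library, -0.89 and 0.72. Lyz2 had -0.69 and 0.65. In the Tom positive reference, 5 of 779 0-UMI fibroblasts held 73.4% of the Cd74 counts and 42.3% of the Lyz2 counts. Cd74 was detected in 39.0% of Tom positive members and 23.2% of these reference cells, and Lyz2 in 73.2% and 49.3%, with members deeper. As a mean over cells of CPM, the Tom positive differences were -0.0090 for Cd74 and -0.17 for Lyz2. Iigp1, an interferon-induced GTPase, had 1.07 and -0.79, and 1 of 123 Tom positive members held 34.3% of its counts. Mmp13 had -1.18 and 0.77, with 84.8% of the Tom positive and 66.3% of the Tom negative counts in 5 members each. Without called doublets (1 Tom positive and 6 Tom negative members, and those of the reference) Lyz2 had -0.21 and 0.29 and Cd74 0.34 in the Tom negative library, all under 1.5-fold.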

How the results depend on the processing

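Of 121 differences of named genes past 1.5-fold, recomputed in 1452 alternative values, 60 values were under 1.5-fold and 14 changed sign. With under 100 CPM of other cells' markers, Cd74 (Tom negative -0.14), H2-Aa (Tom negative -0.10) and Lyz2 (Tom positive 0.00083, Tom negative -0.069) changed sign. Without barcodes found in both libraries, Cd74 (1.05), H2-Aa (0.95), Lyz2 (0.092) and Slpi (-0.21) did in the Tom positive and H2-Aa (-0.20) in the Tom negative library. Against the deeper 0-UMI cells, Cd74 (0.31), Fmod (1.06), H2-Aa (0.75) and Tagln (-0.30) did in the Tom positive library, and after thinning Cd74 (0.22) did. The shares, Tom positive and Tom negative, were 12.8% and 17.8% with at least 3 rule UMIs, 6.79% and 7.94% with at least 10, and 4.89% and 8.21% without shared barcodes. Thinned to 5000 UMIs they were 13.9% and 17.1% with at least 1 rule UMI, and 5.71% and 7.42% with at least 2. Genes higher and lower in cycling fibroblasts numbered 498 and 338 with at least 3 rule UMIs, 515 and 271 with the deeper reference, 449 and 333 at 50 CPM or more, and 1378 and 1094 with no minimum level. The 271 lower genes with the deeper reference had the 20 CPM minimum applied anew, and on the same 6628 genes 282 were lower. Between sorts, 470 were higher and 572 lower after thinning, 46 and 26 at 50 CPM or more, and 579 and 868 with no minimum; without shared barcodes 230 were lower. The log2 difference of tdTomato in the Tom positive library was 0.20 with at least 10 rule UMIs, 0.16 with under 100 CPM of other markers, 0.19 without shared barcodes, 0.48 against the deeper reference, 0.17 thinned and 0.013 with the median set to 0. The cause of these changes was not tested, except that higher or lower minimums change the number of genes measured. No paired analysis was possible because each group is 1 library. The results rest on 1 library per sort, so differences between libraries, animals or sorts cannot be told apart.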
